A study of Mus musculus with 54 samples.

Results

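Wnt proteins are secreted lipid-modified ligands that bind frizzled receptors on neighbouring cells. Together with the coreceptors Lrp5 and Lrp6 this binding stabilises β-catenin, which acts with TCF and LEF factors on target genes, and other Wnt and frizzled pairs act without β-catenin on cell polarity and movement. Secreted antagonists hold the system back, either by binding the ligand (the Sfrp proteins, Frzb and Wif1) or by occupying the coreceptor (Dkk1, Dkk2 and Dkk4). In the adult brain the pathway is known for its part in synapses and the blood-brain barrier, in the kidney for tubule development and repair, and in the heart for valve and muscle development.

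The genes described here are the members of this family, picked by symbol, while the family itself was chosen with earlier results of these data known. They comprise 19 Wnt ligands, 10 frizzled receptors, the 2 coreceptors, 5 secreted frizzled-related proteins (Sfrp1, Sfrp2, Sfrp4, Sfrp5 and Frzb), 4 Dickkopf genes and Wif1, in all 41 of the 54232 genes counted. Their mRNA was followed in 54 RNA sequencing libraries of mice given daily intraperitoneal injections for 14 days, either of Cmpd60 at 22.5 mg/kg or of its vehicle of DMSO, PEG400 and saline. Cmpd60 is a benzamide that inhibits the histone deacetylases HDAC1 and HDAC2, enzymes that remove acetyl groups from histones.

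The first cohort held naturally aged male mice of BL6 background, about 20 months old and housed singly. From these mice came 6 Cmpd60 and 6 vehicle libraries of brain, 6 and 5 of kidney, and 5 and 6 of heart. The second cohort held male APPSWE-1349 mice of BL6 background, 6 to 7 months old, which carry a form of human amyloid precursor protein with the Swedish mutation, and their littermates without the transgene. The promoter that drives the transgene is not given in the sources used here. Brain was sequenced from 4 APPSWE mice given Cmpd60 and 6 given vehicle, and from 5 littermates given Cmpd60 and 5 given vehicle. One of the 6 APPSWE vehicle libraries, replicate s139, is labelled vehicle in one source and compound in another and was kept out, which leaves 5. The kidney labels also disagree, with the treatment field opposite to the titles. The titles, which the source names share, were followed. If the field were right, the signs within kidney would turn, the differences in response that involve kidney would change in size as well, and the kidney levels would be those of treated mice.

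An aged library held 23584609 to 57430113 gene counts, and an APPSWE cohort library 25052335 to 55871402. In the brain of aged mice the Cmpd60 libraries were mostly the deeper ones, with 29646412 to 57430113 counts and 25850 to 28017 genes detected, against 26402957 to 32344641 counts and 24939 to 25861 genes in the vehicle libraries. The tissues carried their own markers. The summed level of 6 neuronal markers was 5218 to 6890 CPM (counts scaled to the same library total) in aged brain and 0.47 to 1.71 CPM in kidney, that of 6 tubule markers was 7363 to 15823 CPM in kidney and 1.25 to 2.38 CPM in brain, and that of 6 cardiomyocyte markers was 45362 to 58514 CPM in heart. The lists were not empty elsewhere, with cardiomyocyte markers at 183 to 320 CPM in aged brain and neuronal markers at 48.4 to 71.0 CPM in heart. In such bulk tissue, fewer cells of a type and less RNA per cell cannot be told apart.

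For 27 of the 41 members the RefSeq tables hold a promoter window, 30 windows in all. The 250 bases before a listed transcription start are shown for 5 of them on GRCm38.p6. For Wnt9b this start lies inside the RefSeq gene span, which runs to 103775272 on chromosome 11. The same holds for Wnt11, whose RefSeq span begins at 98835084 on chromosome 7, so the last bases of its window fall within it. Sfrp5 was the only member past the adjusted threshold after Cmpd60, Wnt9b and Wnt3 are neighbours on opposite strands of chromosome 11 and both had lower values in the treated brains, and Wnt11 and Wif1 are a ligand and an antagonist that were highest in heart. Capitals mark matches to the TCF and LEF core (CTTTGAA or CTTTGAT) and to the core bound by hypoxia-inducible factors (ACGTG), on either strand.
Sfrp5, chr19:42202253-42202502, minus strand: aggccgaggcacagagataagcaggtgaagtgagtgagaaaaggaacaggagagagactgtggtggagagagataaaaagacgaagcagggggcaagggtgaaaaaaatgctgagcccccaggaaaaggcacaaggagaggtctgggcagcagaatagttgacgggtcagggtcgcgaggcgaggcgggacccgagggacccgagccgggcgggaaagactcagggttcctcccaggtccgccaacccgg
Wnt9b, chr11:103749822-103750071, minus strand: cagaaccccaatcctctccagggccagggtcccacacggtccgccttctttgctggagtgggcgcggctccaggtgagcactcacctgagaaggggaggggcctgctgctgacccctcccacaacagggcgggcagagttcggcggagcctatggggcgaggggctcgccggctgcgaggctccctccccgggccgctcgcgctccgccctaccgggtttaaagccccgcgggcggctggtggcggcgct
Wnt3, chr11:103773925-103774174, plus strand: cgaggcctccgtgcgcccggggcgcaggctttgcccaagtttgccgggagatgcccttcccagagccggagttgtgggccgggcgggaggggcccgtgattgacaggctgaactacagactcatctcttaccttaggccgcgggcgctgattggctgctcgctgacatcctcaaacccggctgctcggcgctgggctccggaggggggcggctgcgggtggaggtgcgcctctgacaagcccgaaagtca
Wnt11, chr7:98834862-98835111, plus strand: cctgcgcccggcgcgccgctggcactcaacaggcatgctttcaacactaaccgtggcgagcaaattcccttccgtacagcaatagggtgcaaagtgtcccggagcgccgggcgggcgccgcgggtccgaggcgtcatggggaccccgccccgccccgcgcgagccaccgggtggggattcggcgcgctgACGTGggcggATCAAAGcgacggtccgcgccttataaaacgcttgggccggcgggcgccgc
Wif1, chr10:121033754-121034003, plus strand: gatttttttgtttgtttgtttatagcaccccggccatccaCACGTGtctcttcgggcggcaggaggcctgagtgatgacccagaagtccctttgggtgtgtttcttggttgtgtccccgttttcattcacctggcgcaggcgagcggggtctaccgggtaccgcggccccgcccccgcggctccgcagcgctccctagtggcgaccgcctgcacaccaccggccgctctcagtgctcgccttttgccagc

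The 5 windows differ in what they hold. The printed Wnt11 window has 1 ACGTG and 1 CTTTGAT (read as ATCAAAG on the printed strand). The Wif1 window has a CACGTG, which reads as ACGTG on both strands. The windows of Sfrp5, Wnt9b and Wnt3 have no match and are printed without capitals. A second Wnt11 window, chr7:98838595-98838844, is not printed and has no match. Among the 30 windows of members, CTTTGAA occurred in 1 (Dkk1), CTTTGAT in 2 (Wnt5b and Wnt11) and ACGTG in 5 (Fzd9, Wif1, Wnt11, Wnt5b and Wnt9a). In all 32851 promoter windows of the same length these motifs occurred in 4.46%, 3.21% and 16.6%. A match describes the letters only and is no measurement of binding.

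Which members each tissue used was read from the vehicle libraries of the aged mice, scaled together and divided by exon length (CPM per kb). Of the 41 members, all but Wnt1, Wnt3a, Wnt8a and Dkk4 (37) passed the filter, under which at least 3 of the 34 aged libraries must exceed 2 counts. Dkk4 had no count in any of the 54 libraries. Members with fewer than 3 counts in every library were Wnt3a and Dkk4 in aged brain, Wnt1, Wnt3, Wnt3a, Wnt8a and Dkk4 in kidney, and Wnt1, Wnt3, Wnt3a, Wnt7a, Wnt8a, Wnt8b, Dkk1 and Dkk4 in heart, all under the floor of 3 counts, which lay between 0.0522 and 0.127 CPM.

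**Figure D1:**
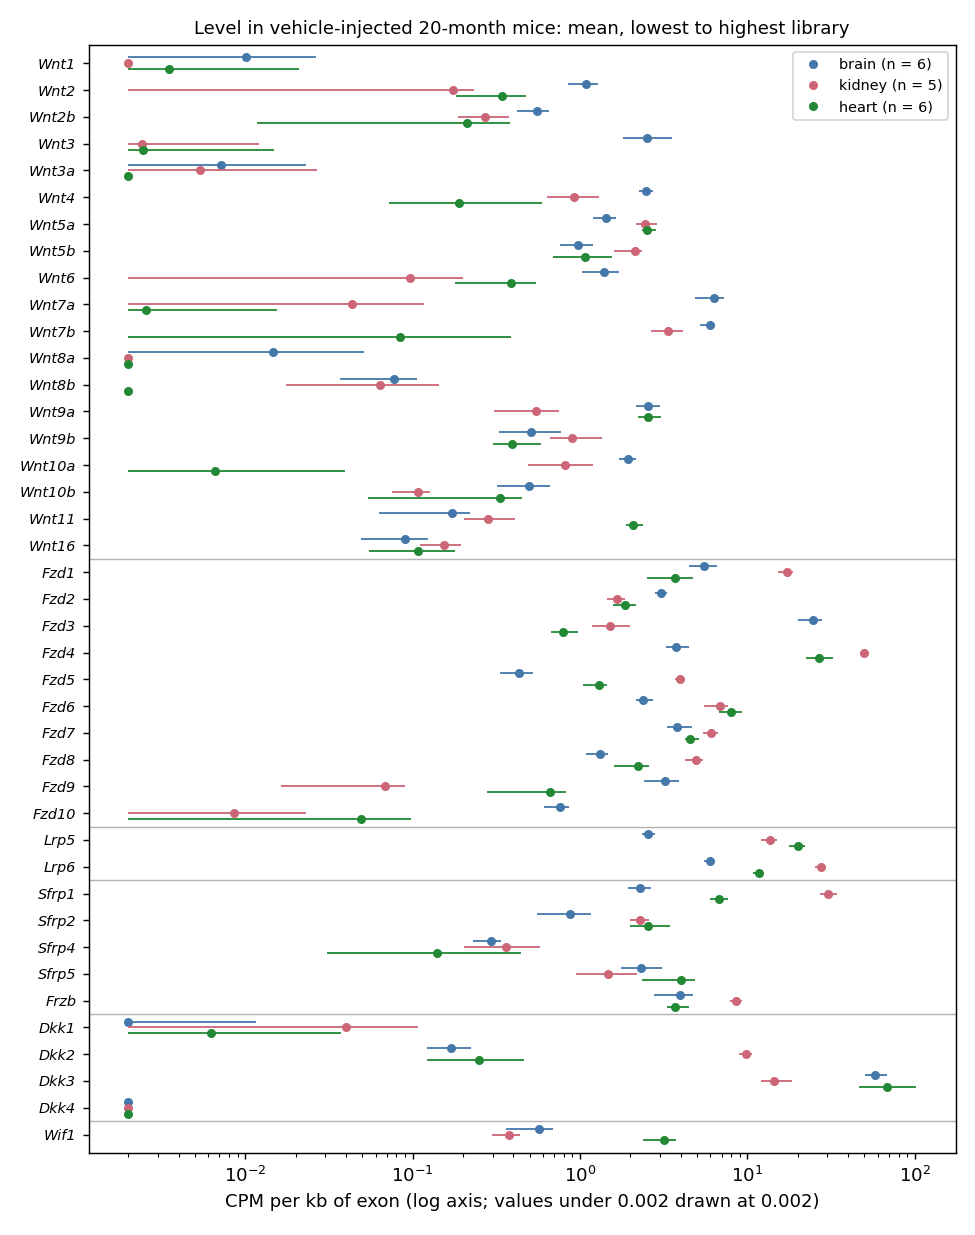
Level of all 41 members in the vehicle libraries of aged brain, kidney and heart, in CPM per kb of exon on a log axis. Points are means and lines run from the lowest to the highest library, and values under 0.002 are drawn at 0.002. Most ligands lie to the left of most receptors, and Wnt3, Wnt7a and Fzd3 in brain, Dkk2 and Sfrp1 in kidney, and Wnt11 and Wif1 in heart stand apart from the other tissues.

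By mean level per length, the leading ligand of brain was one that kidney and heart nearly lacked, with Wnt7b close behind it. The leading ligand of kidney, Wnt7b, was higher in brain, and that of heart, Wnt9a, did not differ from brain beyond the threshold. Wnt7a, a ligand of neurons and of brain vessels, was the highest ligand in brain at 6.33 ± 0.996 CPM per kb (SD, n = 6), with a range of 4.86 to 7.23, and lay at 0.0432 in kidney and 0.00256 in heart. Wnt7b followed in brain at 5.94 ± 0.494, with a range of 5.20 to 6.37 that lies inside that of Wnt7a. By total count in brain Wnt7b was the higher, with 5413 against 4157, so their order rests on the exon lengths used. Wnt7b was the highest ligand in kidney at 3.33 ± 0.521 (n = 5), lower than in brain by 0.83 on the log2 scale (adjusted p = 0.00652, edgeR). Wnt3 had 2.53 ± 0.592 CPM per kb in brain, where the libraries lay between 1.80 and 3.53, and a single count over all 5 kidney and a single count over all 6 heart libraries. In heart the highest ligands were Wnt9a at 2.55 ± 0.337, Wnt5a at 2.52 ± 0.199 and Wnt11 at 2.07 ± 0.203 CPM per kb, whose ranges meet. Wnt9a differed by 0.00 on the log2 scale between heart and brain (adjusted p = 1). Wnt11, a ligand that acts mostly without β-catenin, was 2.87 higher on the log2 scale in heart than in kidney (adjusted p = 5.15e-09), and kidney did not differ from brain beyond the threshold (0.72, adjusted p = 0.0696). Wnt5a, the best studied of the ligands that act without β-catenin, differed by 0.04 between heart and kidney (adjusted p = 0.8) and was lower in brain than in kidney by 0.77 (adjusted p = 7.65e-08). A member that passed the filter through 1 tissue alone, such as Wnt3, had to differ there, so the counts between tissues here and below are descriptions. Of the 37 members tested, 12 were higher in brain than in both other tissues at an adjusted p below 0.05, 11 in kidney and 4 in heart, beside 31.4%, 18.3% and 15% of all 27105 genes tested. Among them were 8 ligands in brain (Wnt2, Wnt2b, Wnt3, Wnt4, Wnt6, Wnt7a, Wnt7b and Wnt10a), 2 in kidney (Wnt5b and Wnt9b) and 1 in heart (Wnt11).

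The leading receptor was Fzd4 in kidney and heart and Fzd3 in brain. Fzd4, which also serves the vascular ligand norrin, was the highest receptor in kidney at 49.6 ± 2.54 CPM per kb (n = 5) and in heart at 26.7 ± 3.35 (n = 6), and lay at 3.75 ± 0.427 in brain. Fzd3, a receptor of axon guidance, was the highest in brain at 24.8 ± 2.73, with all 6 libraries between 20.0 and 27.7, against 1.51 ± 0.337 in kidney and 0.79 ± 0.108 in heart. Next came Fzd1 in kidney at 17.2 ± 1.43 and in brain at 5.48 ± 0.866, and Fzd6 in heart at 7.99 ± 1.0 CPM per kb. Fzd6 did not differ between heart and kidney beyond the threshold (0.22 on the log2 scale, adjusted p = 0.0573). The members counted above as higher than in both other tissues included 5 receptors in kidney (Fzd1, Fzd4, Fzd5, Fzd7 and Fzd8) and 4 in brain (Fzd2, Fzd3, Fzd9 and Fzd10). The coreceptors parted as well, with Lrp6 highest in kidney at 27.4 ± 1.38 and Lrp5 highest in heart at 20.0 ± 1.64 CPM per kb, and both lowest in brain.

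Kidney and heart each had antagonists that were higher there than in both other tissues (Sfrp1, Frzb and Dkk2 in kidney, Wif1 and Sfrp5 in heart), and brain had none. Dkk3, a Dickkopf protein that differs from the others in that it is not known as a blocker of the coreceptors, was the highest of all members in brain at 58.0 ± 6.58 CPM per kb and in heart at 68.2 ± 19.6, and these tissues did not differ beyond the threshold (0.23 on the log2 scale, adjusted p = 0.275). Sfrp1, a secreted Wnt-binding protein, dominated in kidney at 30.2 ± 3.61 CPM per kb, 2.16 above heart and 3.73 above brain on the log2 scale (adjusted p = 7.46e-21 and 2.5e-27). Dkk2, a ligand of Lrp6, was at 9.87 ± 0.711 CPM per kb in kidney and at 0.249 in heart and 0.169 in brain. Wif1, which binds Wnt proteins directly, was at 3.16 ± 0.634 in heart against 0.57 ± 0.118 in brain and 0.377 ± 0.0542 in kidney, and Sfrp5 was also highest in heart at 4.01 ± 0.920. Over all roles, the joint fit called 34 of 37 members between brain and kidney, 29 between brain and heart and 28 between kidney and heart at an adjusted p below 0.05, beside 72.5%, 72.1% and 56.7% of all 27105 genes tested.

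Whether the deacetylase inhibitor moved these genes was asked in each aged tissue on its own. One member passed the adjusted threshold, Sfrp5 in heart, which fell by 1.14 on the log2 scale. None passed in brain or kidney, where the smallest adjusted p among members was 0.134 for Wnt9b and 0.114 for Sfrp1. The calls over all genes were 0.0205% of 24438 in brain, 0.3% of 20698 in kidney and 1.18% of 19452 in heart, read beside 0 of 36, 0 of 35 and 1 of 32 members tested. Below, members with an unadjusted p under 0.05 are given with their libraries, and a difference that misses the adjusted threshold is written as a value.

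**Figure D2:**
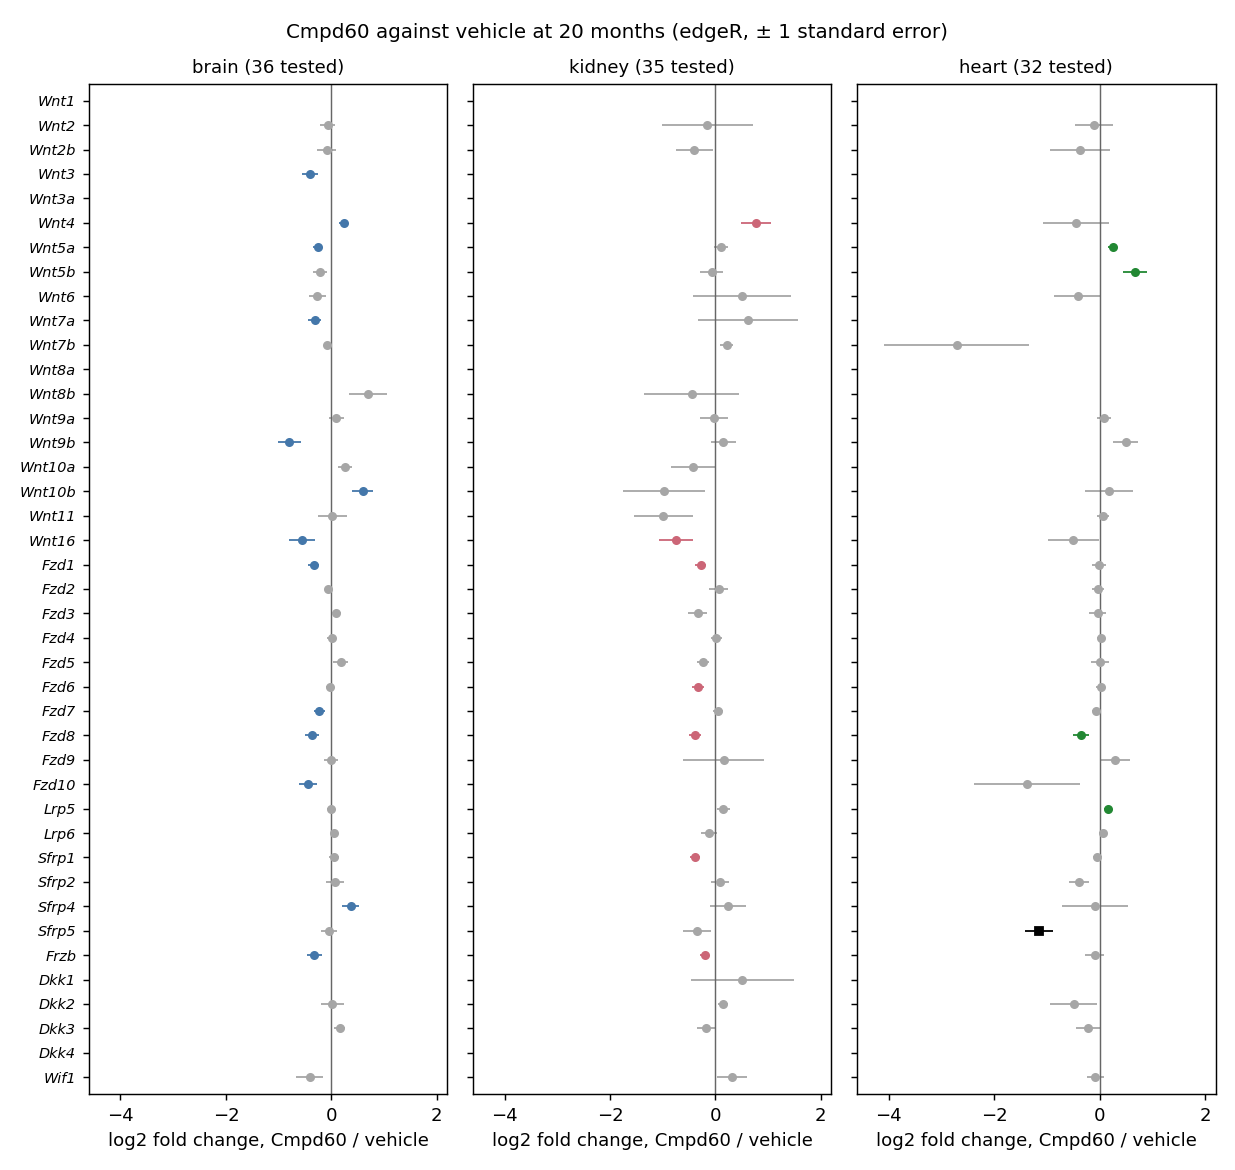
Log2 fold change of Cmpd60 over vehicle in aged brain, kidney and heart for each member tested, with 1 standard error on each side. The black square is the 1 member past the adjusted threshold (Sfrp5 in heart), coloured points have an unadjusted p below 0.05 and grey points do not. Members with no point were not tested in that tissue, and Fzd8 lies to the left of 0 in all 3 panels.

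In brain most members with an unadjusted p below 0.05 had lower values after Cmpd60, none past the adjusted threshold. Among 36 members tested, 13 had an unadjusted p below 0.05 (36.1%, beside 13.8% of all genes), 10 lower (beside 6.47%) and 3 higher (7.32%), and 5 had one below 0.01 (13.9%, beside 4.29%). The median log2 fold change was -0.03 over the members and 0.01 over all genes, with 21 members lower and 15 higher. No member had groups without overlap, which 0.925% of all genes had.

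The ligands of brain are described first, though not in the order of p, which mixes ligands and receptors. Wnt9b (ENSMUSG00000018486), a ligand of kidney tubule formation that is low in brain, had 1.16, 1.42 and 2.39 CPM as the lowest, median and highest of 6 Cmpd60 libraries and 1.76, 2.44 and 4.2 CPM in the vehicle libraries. Of its 6 Cmpd60 libraries, 4 lay under the lowest vehicle library, for a log2 fold change of -0.80 ± 0.21 (SE, adjusted p = 0.134). Its neighbour Wnt3, a β-catenin ligand, ran from 5.43 through 6.84 to 8.63 CPM after Cmpd60 and from 6.68 through 8.73 to 12.9 CPM after vehicle, where 3 of 6 libraries lay above every Cmpd60 library, with a log2 fold change of -0.41 ± 0.15 (adjusted p = 0.247). The 2 gene spans overlap in the RefSeq table, on opposite strands and upstream of the Wnt9b start whose window is printed. The counting took read direction into account. Wnt5a had 9.91, 11.6 and 11.8 CPM after Cmpd60 and 11.1, 13.2 and 15.2 CPM after vehicle, so that 5 of 6 vehicle libraries lay above every Cmpd60 library (-0.26 ± 0.08, adjusted p = 0.194). Wnt7a had 14.3, 19.8 and 24.0 CPM against 18.6, 24.8 and 27.4 CPM, with overlapping groups (-0.31 ± 0.12, adjusted p = 0.28).

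2 ligands lay on the other side. Wnt10b, a β-catenin ligand best known from fat and bone, had 1.64, 1.94 and 3.23 CPM after Cmpd60 and 0.89, 1.39 and 1.84 CPM after vehicle, with 5 of 6 vehicle libraries under every Cmpd60 library (0.60 ± 0.20, adjusted p = 0.212). Wnt4, known for kidney and gonad development, had 11.8, 14.3 and 18.3 CPM against 11.4, 12.3 and 13.7 CPM, and 4 of 6 Cmpd60 libraries lay above the vehicle range (0.23 ± 0.09, adjusted p = 0.281).

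The receptors of brain with the smallest p had lower values after Cmpd60, short of the adjusted threshold. Fzd1, a receptor for β-catenin ligands, had 18.6, 21.4 and 27.4 CPM after Cmpd60 and 23, 28 and 34.2 CPM after vehicle, and 4 of 6 Cmpd60 libraries lay below the vehicle range (-0.33 ± 0.11, adjusted p = 0.196). Fzd8 had 3.06, 4.12 and 5.01 CPM against 4.29, 5.24 and 5.89 CPM, with 5 of 6 vehicle libraries above every Cmpd60 library (-0.36 ± 0.13, adjusted p = 0.231). Fzd10 had 1.21, 2.31 and 2.74 CPM against 2.33, 2.99 and 3.31 CPM, again with 5 vehicle libraries above the Cmpd60 range (-0.44 ± 0.17, adjusted p = 0.264). Of the antagonists, Sfrp4 was the first by p, with 1.43, 1.81 and 2.17 CPM after Cmpd60 and 1.11, 1.49 and 1.62 CPM after vehicle and 4 of 6 Cmpd60 libraries above the vehicle range (0.37 ± 0.16, adjusted p = 0.324). The remaining members under an unadjusted p of 0.05 were Frzb, Wnt16 and Fzd7, with log2 fold changes of -0.32, -0.55 and -0.22.

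Some marker lists also differed between the brain groups. All 6 markers of cerebellar neurons were lower in the Cmpd60 brains (median -0.40 on the log2 scale), none past the adjusted threshold. Their summed level ran from 402 to 788 CPM after Cmpd60 and from 596 to 922 CPM after vehicle. Of the members, Wnt3 alone was set against these sums by library. Wnt3 was highest in vehicle replicates 30 and 32, whose cerebellar sums of 865 and 922 CPM were the 2 highest, and lowest in Cmpd60 replicates 33 and 37, whose sums of 402 and 433 CPM were the 2 lowest. Of 6 endothelial markers 5 were higher, none past the adjusted threshold, with sums of 221 to 316 CPM after Cmpd60 and 195 to 227 CPM after vehicle. Of 6 general neuron markers 4 were higher and 2 lower, with sums of 5576 to 6890 CPM against 5218 to 5991 CPM. All 6 striatal markers were higher (median 0.14 on the log2 scale). None of these passed the adjusted threshold. Choroid plexus markers had a wider summed range after Cmpd60 (228 to 954 CPM) than after vehicle (552 to 776 CPM). The part of these cell types, and of the deeper Cmpd60 libraries, in these differences was not tested. With the genes detected as a covariate, the log2 fold changes of the 5 members with the smallest p were -0.87 for Wnt9b, -0.32 for Wnt5a, -0.35 for Fzd1, 0.69 for Wnt10b and -0.34 for Fzd8. In that fit 1 of the members in place of 5 had an unadjusted p below 0.01. Genes detected ran from 25850 to 28017 after Cmpd60 and from 24939 to 25861 after vehicle. The covariate thus nearly separates the groups, and this fit cannot tell it apart from the treatment.

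In kidney 7 of 35 members had an unadjusted p below 0.05 (20%, beside 11.3% of all genes), 6 lower (beside 5.63%) and 1 higher (5.71%), and 2 had one below 0.01 (5.71%, beside 3.78%). The median log2 fold change was -0.07 over the members, with 19 lower and 16 higher, and 0.00 over all genes.

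Sfrp1 (ENSMUSG00000031548), the leading antagonist of kidney by level per length, was the only member whose groups did not overlap, beside 2.3% of all genes. The 6 Cmpd60 libraries had 89.2, 107 and 118 CPM as lowest, median and highest, and the 5 vehicle libraries had 125, 128, 156, 130 and 159 CPM, all above the Cmpd60 range. Its log2 fold change was -0.39 ± 0.10 (SE, adjusted p = 0.114). A joint fit of the 34 aged libraries gave -0.39 with an adjusted p of 0.0176, and DESeq2 gave -0.39 with 0.0101, so that the call of this gene rested on the fit. Frzb, an antagonist of the same family, had 22.1, 25.6 and 27.8 CPM after Cmpd60 and 31.8, 30.0, 30.2, 26.8 and 27.4 CPM after vehicle, with overlapping groups (-0.20 ± 0.09, adjusted p = 0.4).

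In kidney 3 of 9 receptors had an unadjusted p below 0.05, each with lower values after Cmpd60 and none past the adjusted threshold. Fzd8 had 11.4, 13.1 and 15.5 CPM after Cmpd60 and 18.3, 19.3, 17.6, 17.0 and 14.9 CPM after vehicle, where only vehicle replicate 49 lay within the Cmpd60 range (-0.39 ± 0.11, adjusted p = 0.164, and 0.035 by DESeq2). Fzd6, a receptor tied to cell polarity, had 19.9, 23.7 and 27.2 CPM against 28.5, 29.7, 23.8, 32.4 and 33.3 CPM, with vehicle replicate 47 inside the Cmpd60 range (-0.32 ± 0.11, adjusted p = 0.28). Fzd1 had 50.6, 67 and 78.8 CPM against 86.9, 83.9, 75.3, 80.1 and 70.6 CPM, with overlapping groups (-0.28 ± 0.11, adjusted p = 0.356).

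The ligands of kidney went both ways. Wnt4 had 4.12, 6.64 and 11.4 CPM after Cmpd60 and 5.75, 3.26, 2.81, 3.04 and 5.46 CPM after vehicle, so that 4 of 6 Cmpd60 libraries lay above the vehicle range (0.77 ± 0.28, adjusted p = 0.299). Wnt16 was low, with 0.402, 0.63 and 0.74 CPM from 12 to 27 counts after Cmpd60 and 1.28, 1.18, 0.731, 0.751 and 1.17 CPM after vehicle (-0.75 ± 0.32, adjusted p = 0.399). Wnt5a gave 0.11 ± 0.13 and Wnt9b 0.15 ± 0.24 on the log2 scale, both within the spread of the libraries. One Cmpd60 library, replicate 55, had a summed tubule marker level of 7363 CPM against 12161 to 15823 CPM in the other kidneys, and it was also the lowest in Sfrp1, Fzd8, Fzd1 and Wnt16. Without it the log2 fold change was -0.35 for Sfrp1 (adjusted p = 0.111) and -0.34 for Fzd8 (adjusted p = 0.184).

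In heart 5 of 32 members had an unadjusted p below 0.05 (15.6%, beside 13.5% of all genes), 3 higher (beside 7.28%) and 2 lower (6.22%), and 3 had one below 0.01 (9.38%, beside 5.34%). The median log2 fold change was -0.06 over the members, with 20 lower and 12 higher, and 0.00 over all genes. No member had groups without overlap, which 2.69% of all genes had.

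Sfrp5 (ENSMUSG00000018822), a secreted antagonist known to bind Wnt5a, fell in heart. Its 5 Cmpd60 libraries had 4.88, 2.77, 2.75, 1.57 and 1.59 CPM, and its 6 vehicle libraries had 3.69, 6.22 and 7.34 CPM as lowest, median and highest, from 38 to 237 counts per library. The groups met only through Cmpd60 replicate 68, the highest of its group, and vehicle replicate 66, the lowest. The log2 fold change was -1.14 ± 0.27 (SE, adjusted p = 0.0479, edgeR), with group means of 2.71 ± 1.35 CPM (SD, n = 5) and 6.04 ± 1.35 CPM (n = 6). The direction held without any single library, with log2 fold changes from -1.47 to -0.996, but the adjusted p stayed under 0.05 in only 2 of these 11 fits, those without replicate 68 or replicate 66, and reached 0.131 without Cmpd60 replicate 72. In brain and kidney the same gene had log2 fold changes of -0.04 ± 0.15 and -0.34 ± 0.26.

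2 ligands of heart that act mostly without β-catenin, Wnt5a and Wnt5b, had higher values after Cmpd60, short of the adjusted threshold. They were the only ligands there with an unadjusted p below 0.05, so Wnt11 was not among them. Of 12 ligands tested in heart, 6 were higher and 6 lower (median -0.02 on the log2 scale). Wnt5a had 18.8, 18.5, 16.4, 20.5 and 18.8 CPM after Cmpd60 and 14.2, 15.4 and 17.5 CPM as lowest, median and highest after vehicle, with 4 of 5 treated libraries above the vehicle range (0.25 ± 0.08, adjusted p = 0.172). Wnt5b had 4.36, 3.53, 3.31, 2.48 and 4.19 CPM against 1.44, 2.19 and 3.21 CPM, with 4 of 5 again above it (0.68 ± 0.23, adjusted p = 0.18). Wnt9b gave 0.50 ± 0.24 (adjusted p = 0.38). Of the receptors, Fzd8 had 4.11, 4.45, 4.56, 6.13 and 4.02 CPM against 4.34, 6.08 and 6.71 CPM, and 3 of 6 vehicle libraries lay above every Cmpd60 library (-0.35 ± 0.15, adjusted p = 0.301). The coreceptor Lrp5 had 91.5, 101, 93.5, 84.7 and 86.7 CPM against 75.9, 81.2 and 90.1 CPM, with 3 of 5 treated libraries above the vehicle range (0.15 ± 0.07, adjusted p = 0.328).

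The summed level of 6 cardiomyocyte markers spanned 45362 to 56782 CPM after Cmpd60 and 48644 to 58514 CPM after vehicle, and that of 6 fibroblast markers 944 to 1037 and 902 to 1094 CPM, so that neither separated the groups. All 6 endothelial markers were higher after Cmpd60, none past the adjusted threshold, with sums of 974 to 1298 CPM against 931 to 1050 CPM, and their part in the values above was not tested.

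**Figure D3:**
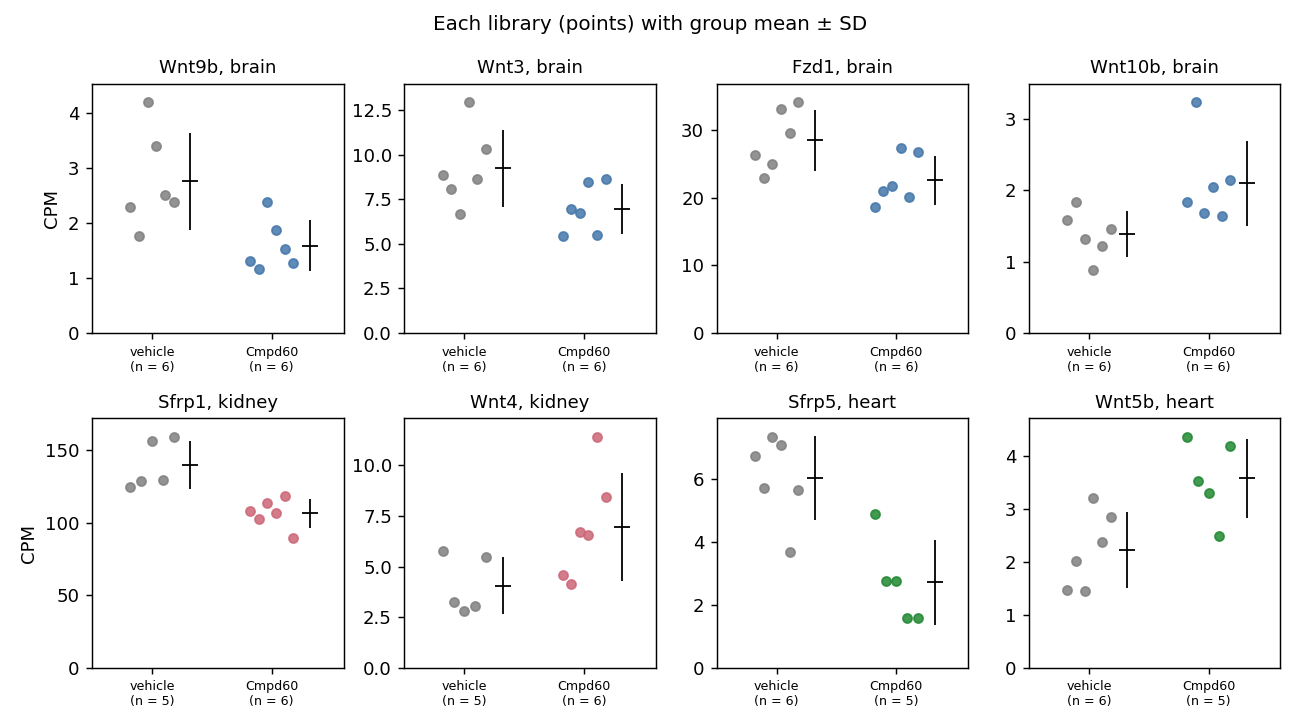
CPM of 8 members in each library of the tissue named in the panel title, with the vehicle group on the left, the Cmpd60 group on the right, and the mean ± SD beside each group. Sfrp1 in kidney is the only panel without overlap, and in the Sfrp5 panel 1 library of each heart group lies inside the range of the other.

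Fzd8, Wnt5a and Wnt9b were followed through every tissue because the study or an earlier report of these data had named them. Their directions in these same libraries are therefore no independent support. The Fzd8 value was lower after Cmpd60 in all 3 aged tissues, with log2 fold changes of -0.36 in brain, -0.39 in kidney and -0.35 in heart, none past the adjusted threshold, and the kidney value rests on the titles. Wnt5a was at -0.26 in brain, 0.11 in kidney and 0.25 in heart, and Wnt9b at -0.80, 0.15 and 0.50. Whether responses differ between the tissues was tested in the joint fit, in which no member passed the adjusted threshold, beside 0.0885%, 0.0517% and 0.35% of all genes for brain against kidney, brain against heart and kidney against heart. Wnt9b came closest for brain against heart, with a difference of -1.28 ± 0.34 (95% interval -1.94 to -0.61, adjusted p = 0.159, and 0.0307 by DESeq2). The Sfrp1 difference between brain and kidney was 0.48 ± 0.13 (95% interval 0.22 to 0.74, adjusted p = 0.154, and 0.0373 by DESeq2). The Wnt5a difference between brain and heart was -0.49 ± 0.15 (adjusted p = 0.275), and that of Sfrp5 was 1.12 ± 0.34 (adjusted p = 0.282).

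**Figure D4:**
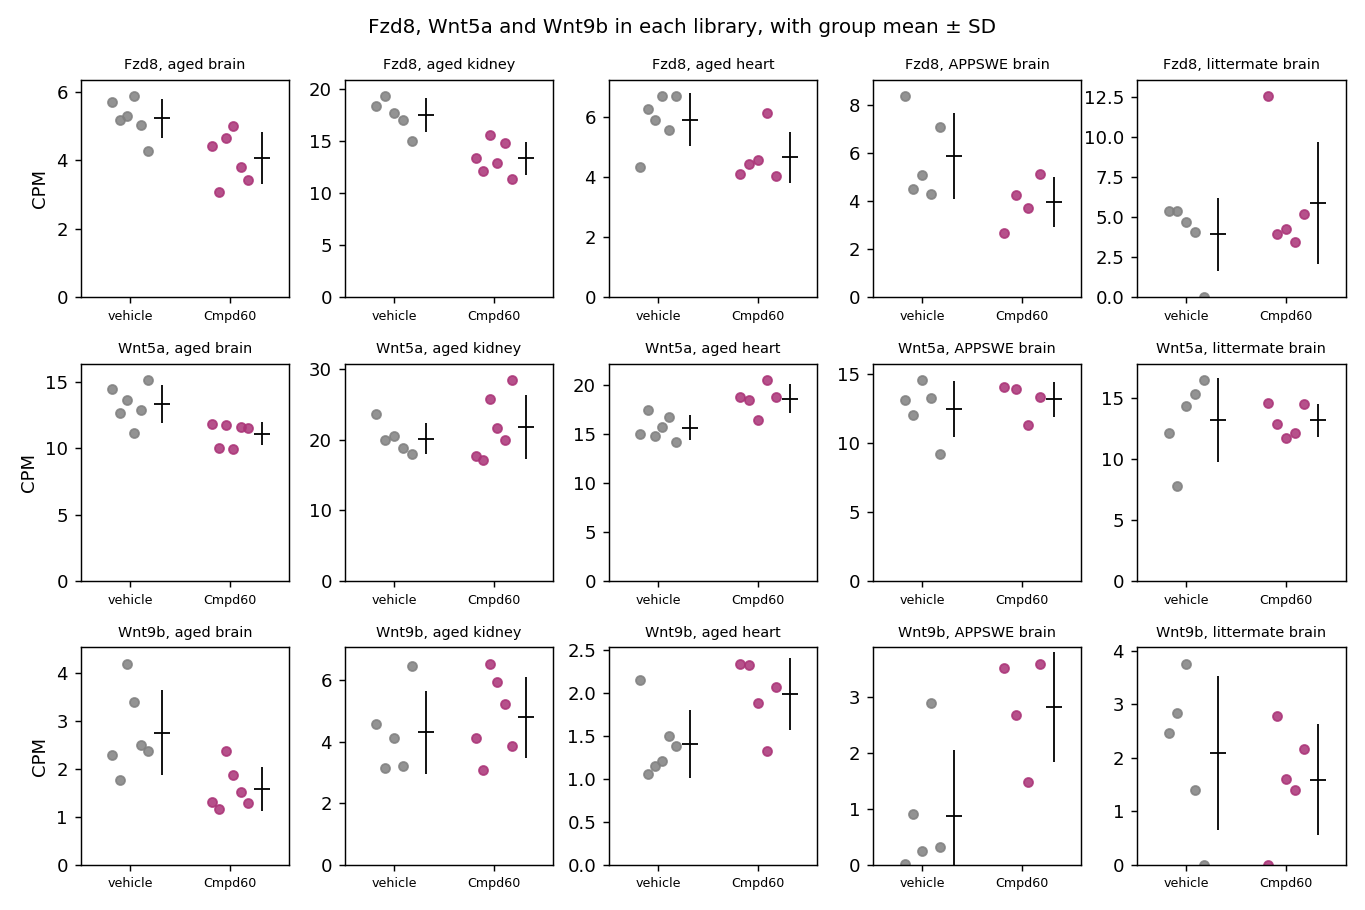
CPM of Fzd8, Wnt5a and Wnt9b (rows) in each library of the 3 aged tissues and of the APPSWE and littermate brains (columns), vehicle at left and Cmpd60 at right, with the mean ± SD. Fzd8 is lower on average after Cmpd60 in the 3 aged tissues, and in the littermate brains 1 vehicle library at 0 and 1 Cmpd60 library at 12.6 CPM lie apart.

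In the APPSWE cohort no member had an unadjusted p below 0.05 in any of the 5 comparisons, that is Cmpd60 against vehicle in APPSWE mice (beside 9.46% of all 23194 genes tested) and in littermates (3.67%), APPSWE against littermate under vehicle (8.67%) and under Cmpd60 (1.34%), and the interaction of genotype and compound (5.09%). At an unadjusted p below 0.01 the shares of all genes were 2.03%, 0.384%, 1.74%, 0.116% and 0.949%, and at the adjusted threshold 0.00862% in the third comparison and 0% in the others. No member had groups without overlap in the first 4 of these, beside 2.31%, 0.509%, 0.638% and 0.936% of all genes. The smallest unadjusted p was 0.0539, for Fzd7 in littermates, with a log2 fold change of 0.43 ± 0.21 (adjusted p = 0.999).

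Fzd8 had 2.65, 4.26, 3.73 and 5.14 CPM in APPSWE mice given Cmpd60 and 8.38, 4.50, 5.09, 4.30 and 7.09 CPM after vehicle (-0.57 ± 0.73, adjusted p = 0.941), and -0.17 to -0.72 over the other settings. In littermates it had 12.6, 3.94, 4.23, 3.43 and 5.19 CPM after Cmpd60 and 5.41, 5.39, 4.72, 4.07 and 0 CPM after vehicle (0.58 ± 0.69, adjusted p = 0.999). The 95% interval of this value ran from -0.76 to 1.93, which takes in the aged brain value. Without Cmpd60 replicate s152 it was 0.10, without vehicle replicate s155 it was 0.26, with limma-voom it was 1.57, and with library quality weights added to limma-voom it was -0.01. Wnt5a was steadier, with 14.0, 13.9, 11.3 and 13.3 CPM after Cmpd60 and 13.1, 12.0, 14.6, 13.3 and 9.20 CPM after vehicle in APPSWE mice (0.08 ± 0.26, adjusted p = 0.995). In littermates its log2 difference had an interval from -0.49 to 0.48. Wnt9b had 3.51, 2.68, 1.48 and 3.60 CPM after Cmpd60 and 0.0179, 0.90, 0.246, 2.89 and 0.317 CPM after vehicle in APPSWE mice, the first of these from 1 count (1.69 ± 1.22, adjusted p = 0.776). It was 3.04 with limma-voom and 2.93 without vehicle replicate s145, and the lowest value of any setting was 1.37. In littermates it was at -0.40 ± 1.14, with no count in Cmpd60 replicate s152 and vehicle replicate s155, and it ran from -1.50 with the genes detected as a covariate to -0.08 without s152 and likewise without vehicle replicate s151.

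The libraries of this cohort were less alike than those of the aged brain. Over the 33 members with a mean of at least 1 CPM over all brain libraries, the median coefficient of variation was 13.5% in aged vehicle and 18.2% in aged Cmpd60 brains, and 37.4%, 32.2%, 35.3% and 30.0% in littermate vehicle, littermate Cmpd60, APPSWE vehicle and APPSWE Cmpd60 brains. The common biological coefficient of variation over all genes was 0.729 in this cohort and 0.114 in aged brain. Littermate vehicle replicate s155 had fewer than 3 counts for 9 of these members and littermate Cmpd60 replicate s152 for 8, whereas every aged brain library had at least 3 counts for each of them. The median library held 27829749 counts in this cohort, 28188598 in aged vehicle brains and 38855585 in aged Cmpd60 brains. Per library, 15044 to 24821 genes were detected here and 24939 to 28017 in aged brain. All 6 choroid plexus markers were lower after Cmpd60 in APPSWE mice (median -0.51 on the log2 scale), none past the adjusted threshold. Their sums ran from 367 to 570 CPM after Cmpd60 and from 394 to 1568 CPM after vehicle. In littermates 3 of these markers were higher and 3 lower. The part of such cell types in the values of this cohort was not tested. Dkk3, the highest member per length in aged brain, had 249 ± 12.4 CPM in littermate vehicle and 249 ± 47 CPM in APPSWE vehicle brains.

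**Figure D5:**
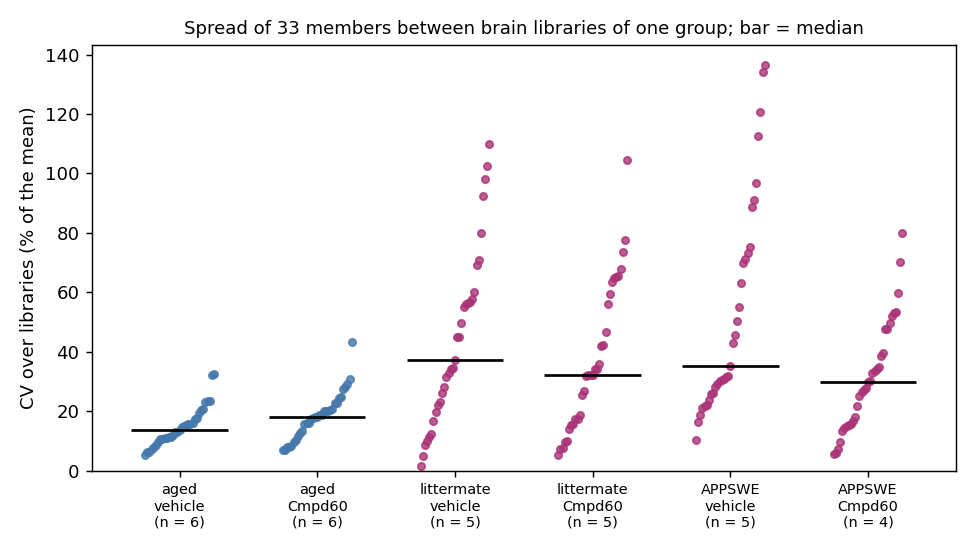
Coefficient of variation over the libraries of each brain group, in percent of the mean, for members with a mean of at least 1 CPM over the brain libraries. Each point is a member and the bar is the median. The medians of the 2 aged groups lie below those of the 4 APPSWE cohort groups, while the points overlap.

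Genes around the ligands and receptors were taken from a list of 43, covering Wnt secretion, R-spondins and their Lgr receptors, other receptors, cytoplasmic signalling, cell polarity, TCF and LEF factors and target genes. Like the members, this list was chosen with earlier results known. None of the 43 tested in brain, 41 in kidney and 41 in heart passed the adjusted threshold after Cmpd60, and 5, 5 and 6 had an unadjusted p below 0.05 (11.6%, 12.2% and 14.6%, beside the 13.8%, 11.3% and 13.5% of all genes given above). Axin2, the standard target gene of β-catenin, was at -0.07 ± 0.08 on the log2 scale in brain, -0.23 ± 0.23 in kidney and 0.00 ± 0.14 in heart. Sp5, another direct target, was at -0.48 ± 0.13 in kidney (adjusted p = 0.14). Its libraries overlapped, with 7.08 to 9.92 CPM after Cmpd60 and 9.44 to 13.8 CPM after vehicle. The other target genes of the list had slightly higher mean levels in kidney after Cmpd60, all with overlapping libraries. Mean levels were 21.2 against 18.6 CPM for Notum and 6.89 against 6.53 CPM for Nkd1. For Nkd2 they were 2.49 against 2.45 CPM, and for Tnfrsf19 1.27 against 1.25 CPM. Of the 5 listed genes with an unadjusted p below 0.05 in kidney, 2 were higher (Ror2 and Ryk) and 3 lower (Gsk3b, Sp5 and Vangl1). Ror2, one of the other receptors, had 4.80 to 6.30 CPM after Cmpd60 and 3.23 to 4.70 CPM after vehicle. These groups did not overlap, beside 2.3% of all genes. Lgr6, a receptor for R-spondins, which raise Wnt receptor levels at the membrane, was at -0.56 ± 0.15 in brain (adjusted p = 0.134), -0.46 ± 0.35 in kidney and -0.31 ± 0.09 in heart (adjusted p = 0.126). In the APPSWE cohort Axin2 was at -0.30 ± 0.16 after Cmpd60 in APPSWE mice and 0.19 ± 0.15 in littermates, an interaction of -0.49 ± 0.22 (adjusted p = 0.96). In APPSWE mice it ran from 24.2 to 30.7 CPM after Cmpd60 and from 32.8 to 40.1 CPM after vehicle. In littermates it ran from 25.8 to 38.0 CPM after Cmpd60 and from 22.8 to 30.6 CPM after vehicle. The APPSWE groups did not overlap, nor did the 2 vehicle groups (beside 2.31% and 0.638% of all genes). Under vehicle Axin2 was thus already higher in APPSWE mice (unadjusted p below 0.05, edgeR), and the interaction takes in this difference. None of the list passed in any of the 5 comparisons. Lgr4, another R-spondin receptor, was at 0.43 ± 0.17 after Cmpd60 in APPSWE mice and 0.47 ± 0.16 in littermates (adjusted p = 0.444 and 0.999). Both Lgr genes went the other way in the other cohort, with overlapping libraries. Mean Lgr4 after Cmpd60 and vehicle was 39.3 and 42.0 CPM in aged brain, 233 and 259 in kidney and 33.3 and 36.3 in heart. Mean Lgr6 was 7.03 and 6.01 CPM in APPSWE mice and 8.55 and 7.43 CPM in littermates.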

How the data were processed

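Reads were cut with Trimmomatic 0.32, aligned by HISAT2 2.1.0 and counted per Ensembl gene with HTSeq 0.11.0 by the authors, with attention to read direction. Libraries were made with an oligo-dT, strand-marking kit. The genome build and annotation used for counting are not given in the sources used here. The deposited values are raw counts for 54232 genes and 5 summary lines per library, which held 15.4% to 22.1% of the counted total and were left out. Symbols were matched to 32651 identifiers, and 3070 were updated through RefSeq synonyms. Exon lengths came from GENCODE M1 on NCBIM37, which may not be the authors' annotation.

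The counts were analysed in R 4.3.3 with TMM scaling and edgeR 4.0.16 (quasi-likelihood F test), keeping genes for which 3 or more libraries exceeded 2 counts, with Benjamini-Hochberg adjustment over all genes kept. CPM used TMM library sizes. There was 1 fit for each aged tissue, 1 for the 19 APPSWE cohort libraries, and 1 for the 34 aged libraries, used between tissues. The last treats libraries as independent mice, because which tissues share a mouse is not labelled. A call is an adjusted p below 0.05. SEs were derived from the F statistic, and 95% intervals use 1.96 SE. Floors of 3 counts cover counting error only. The code was tested on simulated data. Alternatives were DESeq2 1.42.0, limma-voom (limma 3.58.1, the study's method), other scaling and filters, a covariate, library weights, both groups for replicate s139, and leaving out each library. Named members are up to 10 per aged tissue with p below 0.05, by p, plus Fzd8, Wnt5a and Wnt9b throughout and the 3 highest per role and tissue for levels. Other genes given with values (Frzb, Wnt16 and Fzd7 in brain, Fzd7 and Dkk3 in the APPSWE cohort, the level of Wnt3, and Axin2, Sp5, Notum, Nkd1, Nkd2, Tnfrsf19, Ror2, Lgr6 and Lgr4) were chosen after their values were seen. Members, marker and pathway lists were chosen with earlier results of these data known. Promoter sequences are RefSeq's (GRCm38.p6).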

Additional observations from a re-analysis of the deposited data

Results flagged for a closer look

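In each group of 4 to 10 libraries, the gap of the highest or lowest library to its neighbour was set against the group's range for the members named above (Dixon's test). In 4 of 62 groups a library stood apart, and chance alone gives about 1 in 20. Wnt10b was at 3.23 CPM in aged brain Cmpd60 replicate 34, against 1.64 to 2.15 CPM in the other 5. Fzd8 was at 6.13 CPM in aged heart Cmpd60 replicate 71, against 4.02 to 4.56 CPM in the other 4. Fzd8 was also at 12.6 CPM in littermate Cmpd60 replicate s152, against 3.43 to 5.19 CPM, and at 0 CPM in littermate vehicle replicate s155, against 4.07 to 5.41 CPM.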

How the results depend on the processing

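The 22 counts of members and 31 single values given above were recomputed under the other settings. With DESeq2, 1 member was called in aged brain in place of 0 (Wnt9b, adjusted p = 0.0228), 2 in place of 0 in kidney (Sfrp1 and Fzd8), and 1 in place of 0 for the response of brain against kidney and of brain against heart. The joint fit of the aged libraries called 1 in kidney (Sfrp1). Members at an unadjusted p below 0.01 went from 5 to 1 in brain with the genes detected as a covariate and to 1 in the joint fit, from 2 to 4 in kidney with no filter and to 4 in the joint fit, and from 0 to 1 (Frzb) after Cmpd60 in APPSWE mice with limma-voom. Leaving out each library in turn gave 0 to 1 calls in heart and 2 to 6, 1 to 4 and 1 to 3 members at that p in brain, kidney and heart, 31 to 34, 27 to 29 and 28 to 30 calls between the tissues, and 0 calls elsewhere. Of 31 single values, 28 never changed sign. Wnt5a in APPSWE mice ranged from -0.0106 (without vehicle replicate s146) to 0.146 over the libraries left out. Fzd8 in littermates was -0.0141 with library quality weights. Wnt5a in littermates, whose value was near 0, turned to 0.132 with limma-voom, 0.0299 with the covariate, 0.111 with quality weights, and ranged from -0.148 to 0.0890 over the libraries left out, 6 of them above 0. The causes were not tested. Levels near the floor of 3 counts are limited by depth. No paired analysis was possible because the groups compared share no replicate numbers.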
